A study of Rattus norvegicus with 2 samples.

Results

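The HSP70 and HSP110 chaperone genes of rat oligodendrocyte lineage cells were followed after knockdown of 1 of them, Hspa8. The rows were taken from the deposited expression table by gene symbol: Hspa8, Hspa1a, Hspa1l, Hspa2, Hspa4, Hspa4l, Hspa5, Hspa9, Hspa13 and Hsph1. All 10 were found among 18049 genes. Wild type oligodendrocyte precursor cells (OPCs) were immunopanned from the cortices of pups at postnatal days 2 to 4 and electroporated with siRNA, either scrambled (siSCR) or directed against Hsc70 (siHsc70). Cells of both groups then received differentiation medium with 60 nM T3, the thyroid hormone that drives OPCs to mature, and without PDGF-AA, bFGF and NT3. The RNA is described as taken at day 2 of T3, from immature oligodendrocytes. Each group is 1 library, and 1 siRNA sequence was used against Hsc70, so differences between the groups describe these libraries and could not be set against a spread between cultures. The sources used here do not say how many pups or cultures were pooled.

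HSP70 proteins bind short hydrophobic stretches of unfolded proteins and release them in a cycle driven by ATP hydrolysis. J-domain proteins start the cycle, and nucleotide exchange factors, among them the larger HSP110 relatives, end it by letting ADP go. HSC70, the product of Hspa8, is the form that cells make at all times, while Hspa1a and its twin Hspa1b are switched on by heat shock factor 1 (HSF1) when unfolded proteins accumulate. BiP, the product of Hspa5, and mortalin, the product of Hspa9, do the same work in the endoplasmic reticulum (ER) and in mitochondria. In oligodendrocytes the chaperones meet an unusually large flow of membrane and myelin proteins.

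The knockdown reagent is shown first because every comparison rests on it. Its sequence, as the treatment protocol gives it without naming the strand, has 19 bases:
siHsc70: tcatgactgtcctcatcaa

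Because HSF1 acts on several of these genes through heat shock elements, the stretches before the transcript start that hold the element's letters are also shown. They were read from RefSeq promoter windows of the rat assembly GRCr8, which run from 250 bases before to 50 bases after each annotated start and were found for all 10 members. The searched letters were GAANNTTC and TTCNNGAA on both strands, which overlap where an element has 3 units, and the matched bases are in capitals. Each stretch runs 5′ to 3′ on the gene's own strand, and positions count back from the start, with -1 the base before it. The first Hspa8 stretch, chr8:50080289-50080325 on the plus strand, covers positions -225 to -189, and the second, chr8:50080447-50080483, covers -67 to -31. The Hsph1 stretches are chr12:10427251-10427282 (-117 to -86) and chr12:10427320-10427356 (-48 to -12) on the plus strand. The Hspa2 stretch is chr6:100864366-100864397 on the plus strand (-76 to -45), and the Hspa9 stretch is chr18:26828463-26828494 on the minus strand (-96 to -65).
Hspa8, first: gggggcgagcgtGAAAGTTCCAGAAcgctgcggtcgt
Hspa8, second: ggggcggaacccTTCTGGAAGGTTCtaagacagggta
Hsph1, first: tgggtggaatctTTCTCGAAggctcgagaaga
Hsph1, second: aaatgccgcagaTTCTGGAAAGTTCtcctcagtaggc
Hspa2: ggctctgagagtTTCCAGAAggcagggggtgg
Hspa9: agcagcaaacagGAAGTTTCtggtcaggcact

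Of the 10 members, 5 held an 8-base match in the window (Hspa2, Hspa4l, Hspa8, Hspa9 and Hsph1), against 15.9% of all 33469 windows. The match of Hspa4l and a further match of Hspa9 lie after the start and are not printed. The longer form, 3 alternating units over 13 bases, was in the windows of Hspa8 and Hsph1 alone among the members, and in 0.798% of all windows. Hspa8 holds it at 2 places, at -213 to -201 and at -55 to -43, and Hsph1 holds it at -36 to -24. The CCAAT box was in 37.5% of windows and in those of 5 members, with 4 copies each in those of Hspa5 and Hsph1. These matches describe letters and not binding, and the map of their positions sets them beside each gene's difference.

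**Figure D1:**
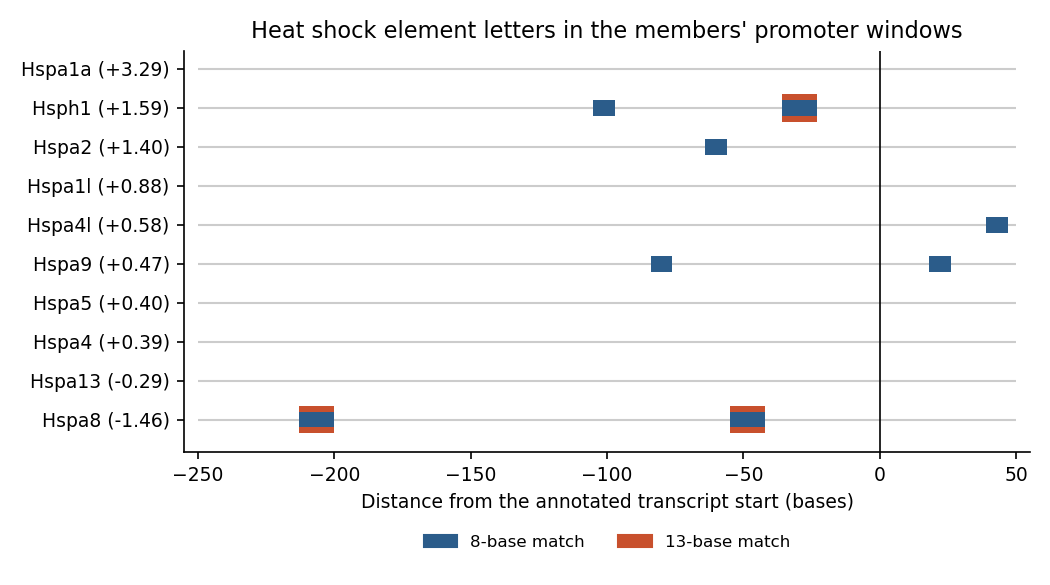
Positions of heat shock element letters in the promoter window of each member, in bases from the annotated start (vertical line); blue bars are 8-base and red bars 13-base matches, and the number after each gene is its difference in log2(CPM + 1), siHsc70 minus siSCR. The 13-base form stands in the windows of Hspa8, the targeted gene and the lowest of the 10 by that difference, and of Hsph1, the second highest. Hspa1a, the highest, holds neither form in its window, which says nothing of inexact elements or of bases outside the window. The window of Hspa1b was not examined.

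The libraries held 19085626 (siSCR) and 18130817 (siHsc70) estimated counts, and the members' own counts ran from 7.79 for Hspa1l in siSCR to 26909.92 for Hspa8 in siSCR. Levels within a gene are given as CPM, counts scaled to a common total with edgeR's TMM factors, and levels between genes as the deposited TPM, which is per transcript length. Folds are ratios of CPM with 95% exact (Clopper-Pearson) intervals that cover counting error only. A gene is called at least 2-fold higher or lower where log2(CPM + 1) differs by at least 1. Of the 13 oligodendrocyte lineage markers all were measured, and 9 were at least 2-fold lower in siHsc70, with a summed level of 8558 CPM in siSCR and 3087 CPM in siHsc70. Astrocyte markers summed to 3547 and 2895 CPM, neuronal markers to 156 and 140.2 CPM, fibroblast and mural markers to 40.5 and 100.0 CPM, microglial markers to 6.24 and 10.3 CPM, and endothelial markers to 8.42 and 4.78 CPM. The astrocyte genes were mixed, with 4 higher by any amount, 3 lower and a median difference of 0.098, and Gfap alone went from 1416 to 667 CPM. Of the neuronal genes, 3 were higher and 3 lower. Of the 4 measured fibroblast and mural genes, 3 were higher and 1 lower, and Col1a1 alone went from 24.3 to 73.8 CPM. Of these lists, 2 of 7 astrocyte, 1 of 6 neuronal and 1 of 2 measured endothelial genes were at least 2-fold lower, and 1 of 4 measured fibroblast and 1 of 2 measured microglial genes were at least 2-fold higher. The background shares for the same rule were 5.14% (lower) and 2.29% (higher) of 13518 genes, also for the 9 of 13 oligodendrocyte lineage markers. Where 1 gene of a short list passed, that is too few to be set against these shares. The part of these markers in the members' differences was not tested, and in bulk RNA fewer cells of a type and less RNA per cell cannot be told apart.

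The targeted gene was lower and most of its relatives were higher. Hspa8 was 2.76-fold lower in siHsc70 (2.69 to 2.83), the inducible gene Hspa1a was 15.4-fold higher (10.7 to 23.2), and the testis-enriched Hspa2 and the HSP110 gene Hsph1 were 2.68-fold (2.46 to 2.92) and 3.04-fold (2.89 to 3.19) higher. The ER and mitochondrial genes Hspa5 and Hspa9 and the other HSP110 genes, Hspa4 and Hspa4l, were higher by less than 1.5-fold each. In all, 3 of 10 members were at least 2-fold higher, where 2.29% of the 13518 measured genes were, and 1 of 10 was at least 2-fold lower, where 5.14% were. Over all measured genes that is 310 higher and 695 lower, or 189 and 795 with the deposited TPM. The members' median difference was 0.52, against -0.0034 over all measured genes. The deposited TPM lowered the median of all measured genes to -0.13, so that differences on that scale are read against this shift. All 10 members kept their direction under each scaling.

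**Figure D2:**
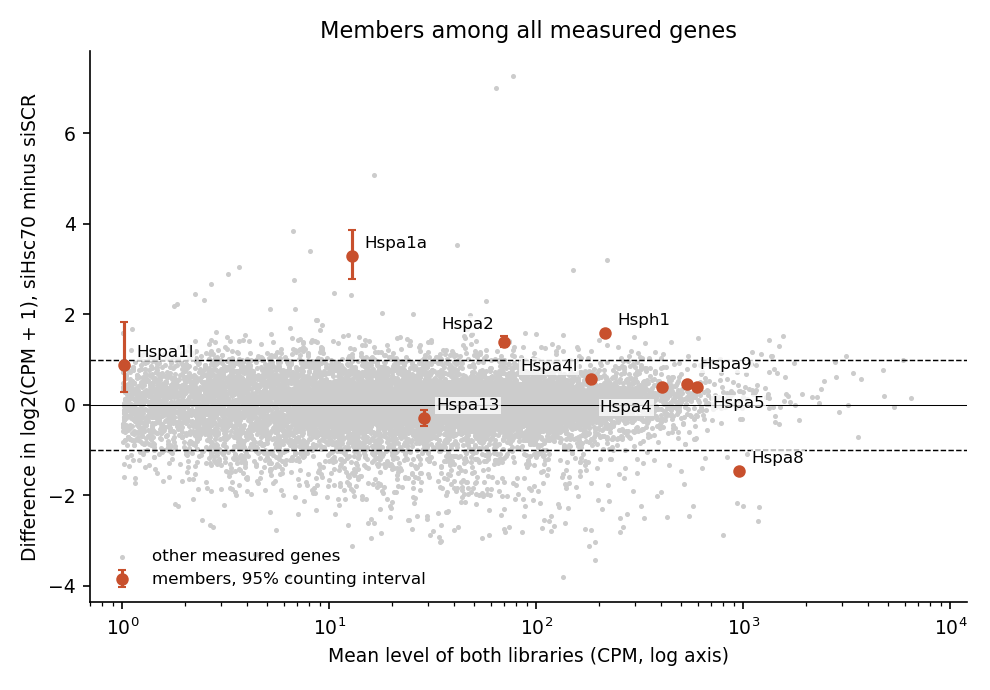
Difference in log2(CPM + 1), siHsc70 minus siSCR, against the mean level in CPM (log axis) for 13518 measured genes (grey) and the 10 members (red, with 95% counting intervals); dashed lines mark 1 and -1. Hspa1a, Hspa2 and Hsph1 lie above the upper line, Hspa8 lies below the lower one, and the other 6 members lie between them.

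Hspa8 (gene ID 24468) encodes the constitutive chaperone that also uncoats clathrin vesicles and carries proteins to chaperone-mediated autophagy. Its level was 1399 CPM in the control library and 507 CPM after knockdown. The siSCR library was the high one by a margin far outside counting error. Of all measured genes, 2.29% had a lower difference than that of Hspa8. By TPM it was the most abundant member in siSCR, at 1431 TPM and rank 58 of all genes in the table, and at 471 TPM and rank 292 in siHsc70. So a reduced Hspa8 transcript was still more abundant per length than 8 of the other 9 members, Hspa5 being above it at 516 TPM.

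The counts of Hspa8 were not whole numbers, and estimated counts need not be whole where reads are divided among rows. A row now named Hspa8-ps25 in RefSeq, the only 1 of 33 RefSeq pseudogenes named for Hspa8 that has a row in the table, carried 17516 counts in siSCR and 6202 in siHsc70. Hspa8 held 60.6% of the sum of both rows in siSCR and 59.5% in siHsc70. The split was thus nearly the same in both libraries, and the sum of the rows was 2.71-fold lower (2.66 to 2.76). Levels of Hspa8 set against other genes depend on this row, so they are given with and without it.

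The inducible pair Hspa1a and Hspa1b gives the stress form of HSP70. Hspa1a (gene ID 24472) had 1.56 CPM in the siSCR library and 24.1 CPM in the siHsc70 library, from 29.86 and 432.62 estimated counts. Its difference was the seventh highest of all measured genes, next to that of Hspa1b, the eighth. Hspa1b, which is not among the 10 because the table lists it under a LOC name, was at 42.2 CPM and 395 CPM, 9.37-fold higher (8.71 to 10.1). Both have near-identical coding sequences and no whole counts, and Hspa1a took 3.55% of the pair's counts in siSCR and 5.74% in siHsc70. The fold of Hspa1a alone is therefore uncertain, and the pair together went from 43.8 to 419 CPM, 9.58-fold higher (8.92 to 10.3).

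Hspa1l (gene ID 24963) encodes another HSP70 of the same gene cluster, made chiefly in germ cells. It was the least abundant member, with 0.416 CPM (siSCR) and 1.61 CPM (siHsc70), from 7.79 and 29.01 estimated counts. The ratio was 3.88 with a counting interval of 1.73 to 9.82, while the difference in log2(CPM + 1) was 0.88. It reached the minimum mean of 1 CPM, which defines measured genes, through the siHsc70 library alone, with a mean of 1.01 CPM. In RefSeq the annotated spans of Hspa1l and Hspa1a overlap by 468 bases on opposite strands. No source used here gives the strand setting of the counting, so reads of Hspa1l and Hspa1a in that stretch cannot be told apart.

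Hspa2 (gene ID 60460) encodes an HSP70 best known from spermatogenesis that is also made in other tissues. Its levels were 38.0 CPM in the siSCR library and 102 CPM in the siHsc70 library, with whole counts of 731 and 1830. The siHsc70 library was the high one, and its difference ranked 80 from the top among the measured genes. Per length it went from 32.6 to 79.0 TPM, which moved it from the eighth to the sixth place among the members. Its counts were whole, unlike those of Hspa1a and Hspa1l.

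**Figure D3:**
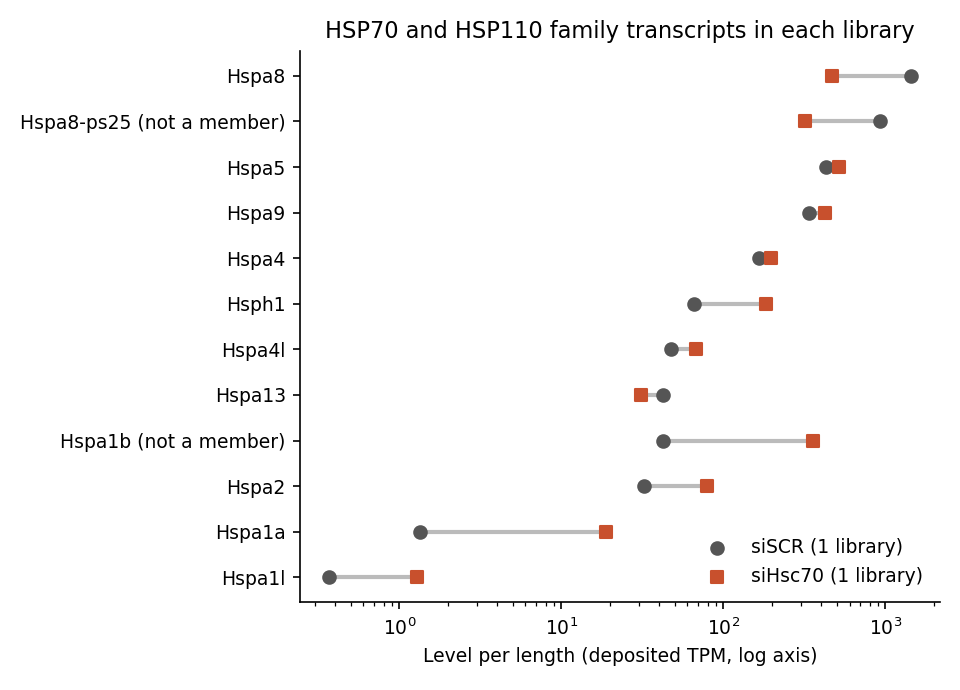
Deposited TPM (log axis) of each member, and of Hspa1b and Hspa8-ps25, in the siSCR library (grey circles) and the siHsc70 library (red squares). Hspa8, Hspa8-ps25 and Hspa13 are lower in siHsc70, and the other 9 rows are higher, with the widest gaps for Hspa1a and Hspa1b.

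The transcripts of the cytosolic HSP70 genes were then added per length to see how far the higher genes made up the sum. Hspa8, Hspa1a, Hspa1b, Hspa1l and Hspa2 together were at 1508 TPM in siSCR and 928 TPM in siHsc70. On the CPM scale the sum was 1481 and 1030 CPM, a ratio of 0.695 (0.683 to 0.708). The 4 genes other than Hspa8 added 381 TPM, which is 39.6% of the 961 TPM by which Hspa8 was lower; by CPM their gain was 49.4% of its loss. With Hspa8-ps25 counted as Hspa8 these shares were 24.3% by TPM and 30.2% by CPM. The sum of cytosolic HSP70 transcripts was thus lower in siHsc70 with and without that row, and by less than Hspa8 itself.

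The make-up of this sum differed more than its size. Hspa8 gave 94.9% of the cytosolic HSP70 TPM in siSCR and 50.7% in siHsc70. Hspa1b gave 2.80% and 38.6%, and Hspa2 gave 2.16% and 8.52%. Hspa1a contributed 0.0889% and 2.04%, and Hspa1l 0.0245% and 0.138%. The inducible pair and Hspa2 therefore made up nearly all of the rest of the sum in siHsc70. With Hspa8-ps25 in the sum, Hspa8 gave 58.85% in siSCR and 37.8% in siHsc70, that row 38.0% and 25.5%, and Hspa1b 1.73% and 28.8%. Hspa8 and that row together thus gave the larger part of the sum in both libraries.

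**Figure D4:**
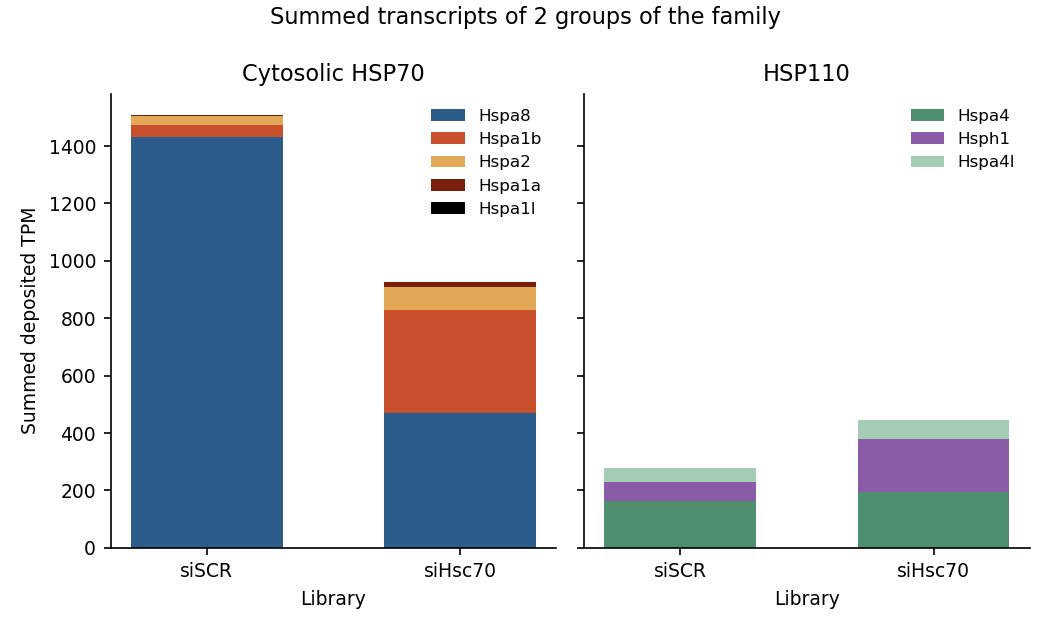
Summed deposited TPM of the cytosolic HSP70 genes (left) and the HSP110 genes (right) in each library, stacked by gene, without the row of Hspa8-ps25. The cytosolic HSP70 sum is 1508 TPM in siSCR and 928 TPM in siHsc70, and the HSP110 sum is 279 and 446 TPM.

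The HSP110 genes encode large relatives of HSP70 that act as its nucleotide exchange factors and help to dissolve aggregates. Hsph1 (gene ID 288444), the heat-inducible HSP105, had 107 CPM in the siSCR library and 324 CPM in the siHsc70 library, from whole counts of 2051 and 5819. Its difference ranked 35 from the top among the measured genes. Hspa4 (gene ID 266759), the constitutive HSP110 also called APG-2, was at 351 CPM and 460 CPM, 1.31-fold higher (1.27 to 1.35). Hspa4l (gene ID 294993), also called APG-1, was at 147 CPM and 220.2 CPM, 1.495-fold higher (1.42 to 1.57). All 3 genes were higher, but Hsph1 by far the most, and its share of the HSP110 TPM was 23.8% in siSCR and 40.9% in siHsc70. Hspa4 gave 59.1% and 43.9% of that sum and remained its largest part.

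As a sum the HSP110 genes went from 279 to 446 TPM while the cytosolic HSP70 sum was lower. For every 100 TPM of cytosolic HSP70 there were 18.5 TPM of HSP110 in siSCR and 48.0 TPM in siHsc70. With Hspa8-ps25 included these were 11.5 and 35.8 TPM. The balance of the exchange factors to HSP70 at the transcript level was therefore higher in siHsc70 under either count.

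Hspa5 (gene ID 25617) encodes BiP, the HSP70 of the ER and a main target of the unfolded protein response. It had 517 CPM in the siSCR library and 681 CPM in the siHsc70 library, 1.32-fold higher (1.28 to 1.35). Hspa13 (gene ID 29734), which encodes a microsomal HSP70 relative that lacks the substrate-binding domain, was at 31.5 CPM and 25.6 CPM, 1.23-fold lower (1.09 to 1.39). Apart from the targeted gene it was the only member with a lower value in siHsc70, and its interval came close to 1. Hspa9 (gene ID 291671) encodes mortalin, the HSP70 of the mitochondrial matrix, and was at 447 CPM and 619 CPM, 1.385-fold higher (1.35 to 1.43). Of measured genes, 82.8% had a lower difference than Hspa5 and 86.4% a lower one than Hspa9.

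By TPM the order of the members in siSCR was Hspa8, Hspa5, Hspa9, Hspa4, Hsph1, Hspa4l, Hspa13, Hspa2, Hspa1a and Hspa1l. In siHsc70 Hspa5 came before Hspa8, and Hspa2 passed both Hspa4l and Hspa13, while the places of Hspa9, Hspa4, Hsph1, Hspa1a and Hspa1l were the same. With 1 library per group, whether neighbours in this order differ beyond the spread between cultures was not tested. If the row of Hspa8-ps25 is added to Hspa8, at 2356 and 788 TPM, Hspa8 comes first in both libraries. Of the HSP70 relatives outside the 10, the ER exchange factor gene Hyou1 was 1.17-fold higher (1.11 to 1.23), and Hspa14, which encodes a ribosome-bound HSP70, was at 36.6 and 32.3 CPM. Hspa12a, a distant relative, had 4.26 CPM (siSCR) and 8.79 CPM (siHsc70), a ratio of 2.06 (1.57 to 2.73). Hspa12b was at 0.468 and 0.445 CPM, below the minimum, and the pseudogene row Hspa6l-ps1 had 1 count in siSCR and 0 in siHsc70.

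Partner genes of HSP70 were described from 7 lists with 53 genes, all of them measured. Of these, 8 were at least 2-fold higher (15.1%, beside a background share of 2.29%), 0 were at least 2-fold lower (beside 5.14%), and 44 were higher by any amount, as were 49.7% of all measured genes and 8 of the 10 members. The median difference over the 53 genes was 0.43. No test against other genes was made, and the lists were drawn up with results of these data known.

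Among 12 cytosolic J-domain genes, 2 were at least 2-fold higher and 0 lower, beside 2.29% and 5.14% of all measured genes, and the list's median was 0.46. Dnaja1, a main partner of HSC70 in protein folding, had 244 CPM in the siSCR library and 645 CPM in the siHsc70 library, 2.65-fold higher (2.56 to 2.74). Dnajb1, the HSP40 that is induced with HSP70, was at 64.7 and 156 CPM, 2.41-fold higher (2.26 to 2.58). The constitutive Dnaja2, chosen after its values were seen, was at 195.0 and 237.5 CPM, 1.22-fold higher (1.17 to 1.27). Its interval does not overlap those of Dnaja1 and Dnajb1, but the intervals cover counting error only. Whether the genes differ beyond the spread between cultures was not tested. Dnajc6, which encodes the neuronal clathrin-uncoating partner auxilin and was chosen after its values were seen, was at 14.9 and 30.0 CPM. Its ratio was 2.01 (1.74 to 2.33), but its difference in log2(CPM + 1), 0.96, was close below the 2-fold rule.

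None of the 7 cytosolic exchange factor genes passed the 2-fold rule, and their median was 0.43. The one furthest from 0 was Bag3, which links HSP70 to selective autophagy, at 131 CPM (siSCR) and 216 CPM (siHsc70), 1.65-fold higher (1.57 to 1.73). Of the 3 adaptor genes, which connect HSP70 to HSP90 or to ubiquitin, 0 passed, and Stip1, the HSP70-HSP90 organiser HOP, was furthest from 0, at 248 and 358 CPM. The dedicated partners of BiP in the ER were mixed: 6 of 8 were higher by any amount, 0 passed the rule, and Sdf2l1 was furthest from 0 at 1.70-fold lower, from 13.3 to 7.78 CPM. Their median of 0.17 was the second lowest of the 7 lists. Partners of mortalin in mitochondria had a median of 0.39 with 0 of 8 past the rule, and Dnlz, whose product keeps mortalin soluble, was furthest from 0 at 1.63-fold higher (1.47 to 1.81).

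Transcripts of the factors that switch on or import HSP70 were at like levels. Hsf1, which encodes HSF1, had 48.6 CPM (siSCR) and 51.8 CPM (siHsc70), a ratio of 1.065 (0.972 to 1.17). Hikeshi, which carries HSP70 into the nucleus, was furthest from 0 in its list, with a ratio of 1.07 (0.972 to 1.19). Of 12 other genes known as HSF1 targets, all were higher, where 49.7% of all measured genes were, and 6 were higher by at least 2-fold, where 2.29% were. Their median was 1.02, in a list drawn up with results of these data known. The small heat shock protein genes Hspb1, Cryab and Hspb8 were 8.11-fold (7.47 to 8.83), 5.10-fold (4.55 to 5.73) and 2.68-fold (2.46 to 2.91) higher. The inducible HSP90 gene Hsp90aa1 was at 801 CPM and 2292 CPM, 2.86-fold higher (2.81 to 2.92). The collagen chaperone gene Serpinh1 was 2.84-fold higher (2.72 to 2.96), and the heme oxygenase gene Hmox1, which also answers to oxidative stress, was 2.12-fold higher (2.09 to 2.14).

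**Figure D5:**
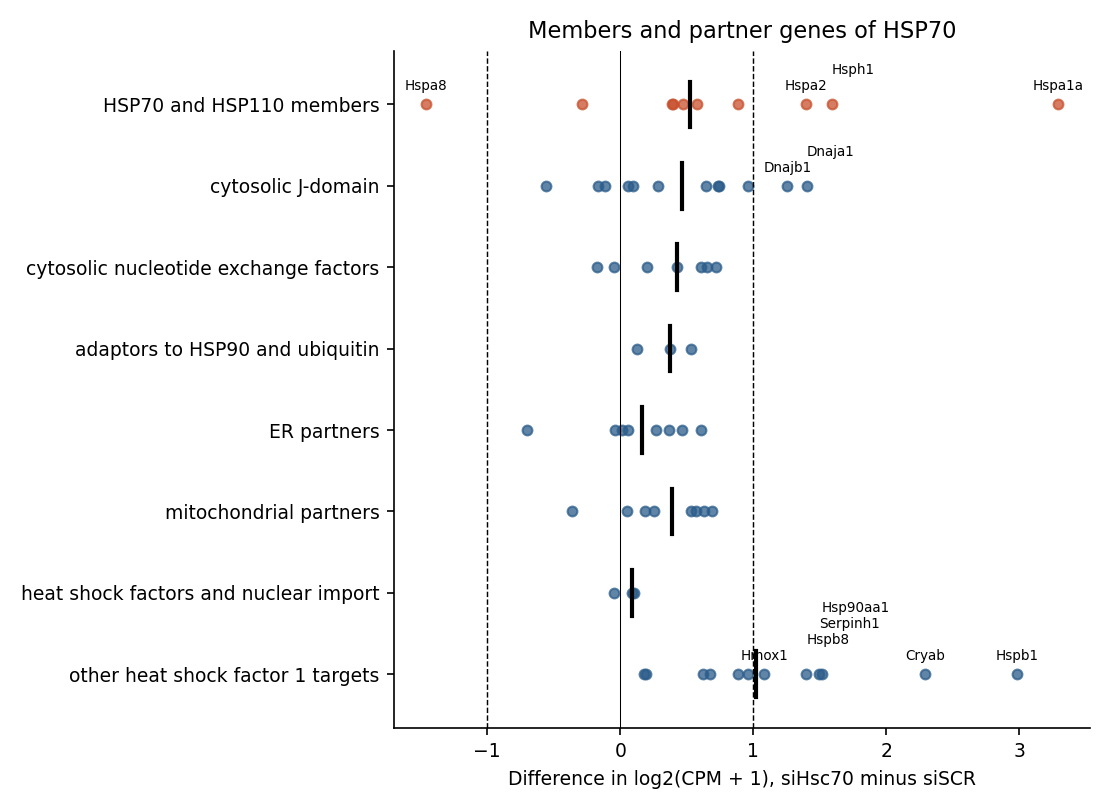
Difference in log2(CPM + 1), siHsc70 minus siSCR, of the 10 members (red) and of the genes of 7 partner lists (blue), 1 point per gene, with list medians as black bars, dashed lines at 1 and -1, and names for genes past them. The HSF1 targets have the highest list median, 1.02, and the heat shock factors and Hikeshi the lowest, 0.089.

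The promoter letters were compared with these partner genes as a description. RefSeq windows were found for 43 of the 53 partner genes, and 12 of them held an 8-base match, beside 15.9% of all windows. The 13-base form was in 5 of the 43 windows, beside 0.798% of all windows: those of Dnaja1, Serpinh1, Chordc1, Hspd1 and Hspe1. Hspd1 and Hspe1 encode the mitochondrial chaperonin pair and lie head to head. Whether their matches are the same bases seen in both windows was not checked, so the 5 windows may hold fewer separate sites. These 5 genes were higher in siHsc70, from 1.45-fold for Hspe1 to 2.84-fold for Serpinh1, as were 44 of all 53 partner genes, so nothing particular to the form is read from it. Windows without the form include those of Hspa1a and Hspa2, and no match says only that the letters are not in that window.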

How the data were processed

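RNA-seq of 2 libraries, 1 per group, was used. The deposited table holds, per the file headers, estimated read counts, FPKM and TPM per gene for each library. Its columns were tied to samples by the siRNA in their names, and 0 value columns were left over. The submitters' processing notes name the build mm39, although the table carries rat gene IDs; 16783 of the 18049 IDs were found in rat RefSeq (GRCr8), whose symbols replaced LOC names. The aligner, quantification program and strand setting were not given in the sources used here. Printed coordinates are those of the RefSeq promoter table, not of the authors' alignment.

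The authors' estimated counts were rounded and scaled with TMM (edgeR 4.0.16, R 4.3.3; factors 1.01 for siSCR and 0.992 for siHsc70). Genes whose mean over the libraries reached 1 CPM were called measured. The difference is log2(CPM + 1), which understates changes of low genes. Intervals were computed with scipy 1.17.1 and tested on simulated data. PCR copies are not independent molecules. A count of 0 allows up to 3 counts, or 0.156 CPM in siSCR and 0.167 CPM in siHsc70. Deposited TPM and deposited FPKM were also used as alternative scales.

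With 1 library per group there is no p-value. The named genes are all members, other HSP70 rows, and of each partner list the genes past the 2-fold rule or else the one furthest from 0. Outside this rule, Dnaja2, Dnajc6, Dnajc7, Hsf1, Chordc1, Hspd1 and Hspe1 and the markers Gfap and Col1a1 were chosen after their values were seen. Members and lists were chosen with earlier results of these data known.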

Additional observations from a re-analysis of the deposited data

How the results depend on the processing

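The directions of all 10 members held under each setting run (another pseudocount, 3 other scalings, the deposited TPM and FPKM, and near-identical rows added), and the count of members at least 2-fold lower was 1 under every setting. The count of higher members was 3 or, with a 1.5-fold rule or a pseudocount of 0.1 CPM, 4; the fourth was Hspa1l, whose difference of 0.88 became 1.73 with that pseudocount. The difference of Hspa8, -1.46, was -1.60 by the deposited TPM and -1.40 with upper-quartile scaling. The members' median, 0.52, was 0.41 and 0.59 in the same order. The ratio of summed cytosolic HSP70 transcripts, 0.695, became 0.726 with upper-quartile scaling, 0.615 by the deposited TPM, 0.668 by the deposited FPKM and 0.575 with Hspa8-ps25 added. Of all genes measured, 310 were at least 2-fold higher, which became 518 at a pseudocount of 0.1 CPM, 189 with the deposited TPM and 202 with the deposited FPKM; a 1.5-fold rule gave 1304 higher and 1626 lower genes, against 695 lower. Depth limits Hspa1l and Hspa1a most. The difference of Hspa1a, 3.29, ran from 2.72 by the deposited FPKM to 3.87 with a pseudocount of 0.1 CPM. That of Hspa1l was 0.50 by the deposited FPKM. No paired analysis was possible because each group has 1 library.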

Other observations

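The transcript length that count, FPKM and library total imply for a gene was nearly the same in both libraries for 9129 genes with at least 5 FPKM in each, with a median ratio of 1.00 and a 5th to 95th percentile of 0.975 to 1.02. Among the members above that level Hspa4l stood apart: its implied length was 6484 bases in siSCR and 6221 bases in siHsc70, a ratio of 0.959, and 2.82% of those genes had a ratio as low or lower. Which transcript forms of Hspa4l account for it was not analysed here.

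The counts of 5 members, Hspa2, Hspa4, Hspa5, Hspa13 and Hsph1, were whole in both libraries, and those of the other 5 were not. Whole here means that the count, deposited with up to 2 decimals, has none other than 0. Among genes with a count above 0 in the library, 72.2% were whole in siSCR and 72.1% in siHsc70. Of the 3 members at least 2-fold higher, Hspa2 and Hsph1 had whole counts and Hspa1a did not. The 10 members together had nearly the same summed scaled level in both libraries, 3038 CPM (siSCR) and 2963 CPM (siHsc70), a ratio of 0.975 (0.964 to 0.987). Without TMM scaling they held 0.306% of the estimated counts in siSCR and 0.294% in siHsc70. Their summed TPM, which gives long and short transcripts the same weight, was 2555 and 1985. These sums leave out Hspa1b, at 42.2 and 395 CPM, and Hspa8-ps25, at 910 and 345 CPM. The near equality by CPM therefore depends on which rows are counted.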
